A study of Mus musculus with 16 samples.

Results

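Adipogenic regulators and lipid droplet genes are described here in mouse embryonic fibroblasts (MEFs) during the first days of reprogramming. The group held 10 genes, chosen by symbol from the 18990 genes of the table: the regulators *Pparg*, *Cebpa*, *Cebpb* and *Cebpd*, the lipid droplet coat genes *Plin1*, *Plin2* and *Plin4*, and the fatty acid handling genes *Fabp4*, *Lpl* and *Cd36*. They were selected with expression values of these same libraries already known, *Plin1* among the large rises in siBrca1 cells at day 3, so the p values below describe single genes and do not stand as independent evidence on the group. All 10 passed the filter of a mean log2 CPM of at least 0, which left 14028 genes for testing. CPM are read counts scaled to the same library size.

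All groups were primary wild-type MEFs of the BL6 strain, reprogrammed at passage 2. Every group carried the doxycycline-inducible tet-STEMCCA lentivirus (Oct4, Sox2, Klf4 and c-Myc, together OSKM) and an rtTA lentivirus, and was kept in serum medium with doxycycline, chiron, an Alk5 inhibitor that blocks TGFb signalling, ascorbic acid and LIF. Cells received pooled siRNAs against *Wdr5* (siWdr5), *Brca1* (siBrca1) or *Bard1* (siBard1), or a non-targeting siRNA (nt control), before induction, and RNA was taken at day 3 and day 6. Each of the 8 groups had 2 libraries from separate experiments, 16 in all. The nt control therefore carried the same viruses, transfection and medium as the knockdowns, and no group without OSKM was analysed here. The siRNAs are transient, and the cultures are mixtures of cells at different stages.

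PPARG and C/EBPalpha are the transcription factors that drive fibroblast-like precursors into fat cells and keep each other expressed, whereas C/EBPbeta and C/EBPdelta act earlier and help to switch them on. Perilipins coat the surface of lipid droplets and control the access of lipases to stored triglyceride: perilipin 1 is typical of fat cells, perilipin 2 is found on droplets of most cell types, and perilipin 4 coats nascent droplets. *Fabp4* encodes a fatty acid carrier of the cytoplasm, *Lpl* the lipase that releases fatty acids from circulating triglyceride, and *Cd36* a fatty acid receptor and transporter of the cell surface. MEFs can become fat cells under hormonal induction, and several of these genes are well-known targets of PPARG.

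The promoters of *Plin1* and *Pparg* are shown. *Plin1* was taken because it had the widest range among the 10 genes on the log2 scale. Its lowest value is a library with 0 reads set by the prior count. Across the libraries it ran about as close to *Fabp4* and *Plin2* as to *Cebpa* (Pearson r = 0.854, 0.843 and 0.852). *Pparg* was taken as the central regulator of the group. Sequences are from RefSeq on GRCm38.p6. They were searched on both strands for TTGCNNAA, a short form of the C/EBP site, for the nuclear receptor half-site AGGTCA, and for 2 such half-sites in the same orientation with 1 base between them (DR1). Capitals mark TTGCNNAA on either strand. The first sequence covers chr7:79732904-79733026 on the minus strand, upstream of the annotated exons of *Plin1*, and the second chr6:115421816-115422065 on the plus strand, before the third of 3 listed starts of *Pparg*.
Plin1: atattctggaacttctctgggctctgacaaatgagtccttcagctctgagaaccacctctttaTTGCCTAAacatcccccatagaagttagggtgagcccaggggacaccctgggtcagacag
Pparg: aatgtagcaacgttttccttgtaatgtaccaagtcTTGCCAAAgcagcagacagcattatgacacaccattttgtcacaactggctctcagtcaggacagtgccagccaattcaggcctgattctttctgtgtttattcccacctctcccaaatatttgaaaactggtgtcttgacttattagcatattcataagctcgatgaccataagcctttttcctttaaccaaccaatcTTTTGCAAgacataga

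In 300-base windows around the starts, TTGCNNAA was found in *Plin1* at -187 and -58 and at the third *Pparg* start at -215 and -16, counted from the start. The *Plin1* match at -58 lies outside the printed sequence. Of 32851 promoters of the same length, 10.8% held TTGCNNAA. AGGTCA, held by 16.3% of promoters, was found once each in *Plin2*, *Cd36* and the first and the second *Pparg* start. DR1, held by 0.0396%, was found in none of the 9 windows of the 7 genes listed (*Pparg*, *Cebpa*, *Cebpb*, *Plin1*, *Plin2*, *Plin4* and *Cd36*). *Cebpd*, *Fabp4* and *Lpl* had no entry. A match of this kind is a description of letters and not of binding.

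The libraries held 11169738 to 26832534 reads, and 3 reads, taken as the floor, corresponded to 0.115 to 0.260 CPM. At day 3 the targeted transcripts were lower than in the nt control by log2-fold changes of -1.31 for *Wdr5* in siWdr5, -1.57 for *Brca1* in siBrca1 and -0.62 for *Bard1* in siBard1 (adjusted p = 3.02e-06, 7.90e-05 and 0.0422). The siBrca1 cells of day 3 also had lower *Bard1* (-1.38) and *Wdr5* (-0.87), the siWdr5 cells lower *Bard1* (-1.03) and *Brca1* (-0.86), and the siBard1 cells lower *Wdr5* (-0.48, adjusted p = 0.00900). At day 6 the targets *Wdr5*, *Brca1* and *Bard1* stood at -0.27, 0.01 and 0.11 in their own knockdowns, and none passed the test (adjusted p = 0.190, 0.988 and 0.853). All 12 fibroblast markers were measured, and their summed level was 5248 to 14341 CPM in the 16 libraries. Of 12 markers of mature fat cells only *Lipe* and *Adrb3* passed the filter. The summed level of the 5 measured ones was 4.75 to 14.4 CPM, and *Adipoq* stayed between 0.136 and 1.78 CPM.

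Per kilobase of exon (the union of all annotated exons of a gene), the level of the members differed by orders of magnitude. In the nt control at day 3, *Plin2* stood highest at 35.5 CPM per kilobase, followed by *Cebpb* at 25.8, *Cebpd* at 15.4 and *Lpl* at 4.47. *Pparg* followed at 2.51, *Cebpa* at 2.05 and *Plin4* at 1.25, and *Fabp4* (0.473), *Cd36* (0.241) and *Plin1* (0.0435) were lowest. These levels include the prior count. For *Plin1* in nt at day 3 they rest on 2 and 0 reads, under the floor of 3. The reads alone gave 0.132 and 0 CPM, against 0.268 and 0.136 CPM with the prior. In the nt control at day 6 *Plin2* was at 109 and *Plin1* at 0.751 CPM per kilobase. The genes that define the fat cell state were thus measured at low levels throughout, and *Plin1*, *Cd36* and *Fabp4* rested on few reads.

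**Figure D1:**
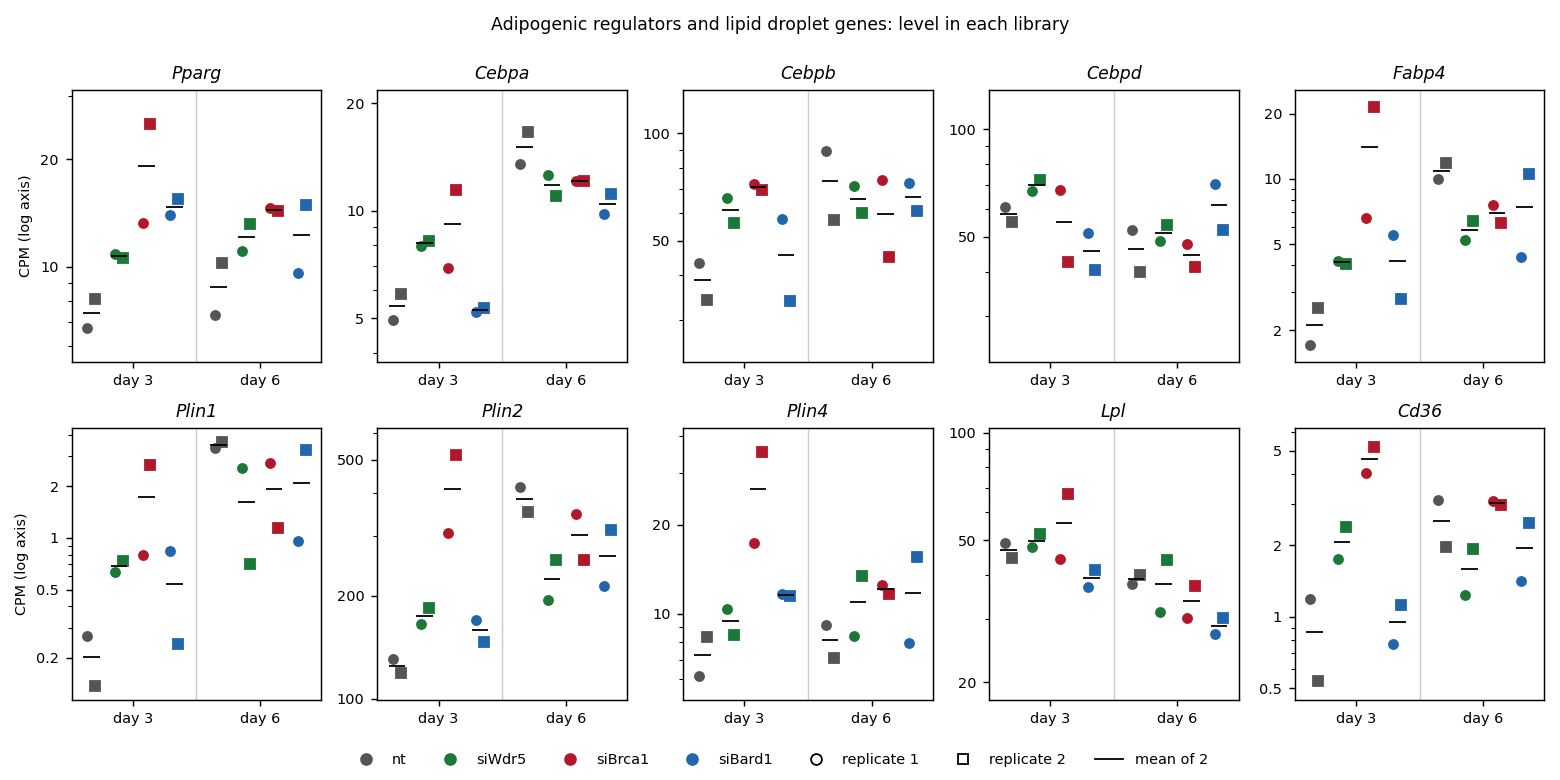
Level of each of the 10 genes in the 16 libraries, in CPM on a log axis, by day and siRNA, with circles for replicate 1, squares for replicate 2 and a line for the mean of 2. At day 3 the siBrca1 libraries overlap the nt libraries for *Cebpd* and *Lpl*. For *Fabp4* and *Plin1* replicate 2 of siBrca1 at day 3 lies well above replicate 1. The second nt library of day 3, drawn at the lowest value of *Plin1*, had 0 reads of it.

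Which genes each knockdown changed against the nt control was asked first, and the 3 knockdowns of a day share the same 2 nt libraries. The siBrca1 cells at day 3 showed the widest change. Of the 10 genes, 6 were called higher than in the nt control (adjusted p < 0.05 with a log2-fold change beyond 1 in either direction): *Pparg*, *Fabp4*, *Plin1*, *Plin2*, *Plin4* and *Cd36*. None was called lower, and 13.4% of all genes tested were called in either direction. The median log2-fold change was 1.49 over the 10 genes and 0.002 over all genes. Because the genes were chosen with such values known, this share is a description. In bulk RNA, more cells that express a gene and more RNA per cell cannot be told apart.

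*Pparg* (chr6:115360951-115490399, plus strand, mm10) was measured at 6.73 and 8.12 CPM in the nt control and at 13.3 and 25.2 CPM in siBrca1 at day 3. The groups did not overlap, and the difference was 1.31 ± 0.23 on the log2 scale (SE, adjusted p = 0.000498). *Cebpa* (chr7:35119293-35121928, plus strand), its partner in the fat cell program, stood at 4.95 and 5.84 CPM in nt and at 6.92 and 11.4 CPM in siBrca1. It passed the test with a log2-fold change of 0.72 ± 0.23 (adjusted p = 0.0170) but stayed under the threshold of 1. The early regulator *Cebpb* (chr2:167688915-167690418, plus strand) was at 43.3 and 34.2 CPM in nt and at 72.2 and 69.4 CPM in siBrca1, a change of 0.88 ± 0.19 (adjusted p = 0.00213). *Cebpd* (chr16:15887286-15891031, plus strand), the other early regulator, was at 60.5 and 55.2 CPM in nt and at 67.5 and 42.6 CPM in siBrca1, with groups that overlapped (log2-fold change -0.11 ± 0.18, adjusted p = 0.638). Of the exon bases of *Cebpb* and *Cebpd*, 20.7% and 15% are shared with *Tmem189* and *Spidr* on the other strand, and whether the counting used strand is not given in the sources used here.

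Among the droplet coat genes, *Plin2* (chr4:86648386-86670060, minus strand) carried most reads, with 130.3 and 119 CPM in nt and 305 and 517 CPM in siBrca1 at day 3. Its log2-fold change was 1.67 ± 0.18 (adjusted p = 1.34e-05), and both siBrca1 libraries lay above all other libraries of that day. *Plin4* (chr17:56100591-56109803, minus strand) was at 6.14 and 8.35 CPM in nt and at 17.4 and 35.4 CPM in siBrca1, a change of 1.79 ± 0.26 (adjusted p = 0.000120). *Plin1* (chr7:79720218-79732903, minus strand), the fat cell perilipin, had 2 and 0 reads in the nt libraries and 9 and 36 in the siBrca1 libraries. The ratio of the read rates was 26.5, with an exact interval of 6.92 to 225 that covers counting error only. Its mean over all libraries was 0.041 on the log2 CPM scale, just above the filter, and it was carried there by the groups in which it was high.

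In the fatty acid handling group, *Fabp4* (chr3:10204088-10208576, minus strand) was at 1.72 and 2.53 CPM in nt and at 6.63 and 21.4 CPM in siBrca1 at day 3 (log2-fold change 2.51 ± 0.43, adjusted p = 0.000381). *Cd36* (chr5:17781690-17888801, minus strand) was at 1.19 and 0.536 CPM in nt and at 4.05 and 5.20 CPM in siBrca1, a change of 2.52 ± 0.39 (adjusted p = 0.000174). Both siBrca1 libraries exceeded every other library of day 3 for these 2 genes. *Lpl* (chr8:68880491-68907448, plus strand), at 49.1 and 44.6 CPM in nt and at 44.2 and 67.5 CPM in siBrca1, overlapped between the groups (0.22 ± 0.16, adjusted p = 0.277).

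The 2 siBrca1 libraries of day 3 differed from each other in these genes more than in the rest of the transcriptome. Replicate 2 was above replicate 1 for 8 of 10 genes, by a median of 0.738 on the log2 scale, against 0.0179 over all genes. The difference exceeded 0.5 for 7 of the 10 genes and for 7.26% of all genes, and it reached 1.69 for *Fabp4* and 1.74 for *Plin1*. In the same libraries *Brca1* itself had 506 reads (37.5 CPM) in replicate 1 and 274 reads (19.4 CPM) in replicate 2. Whether the depth of the knockdown has a part in this was not tested. Without replicate 2 of siBrca1 at day 3, 5 of the 6 calls remained, *Pparg* dropping out with a log2-fold change of 0.84, and *Fabp4* was at 1.67, *Plin2* at 1.29, *Plin4* at 1.28 and *Cd36* at 2.34. *Cebpa*, at 0.36, no longer passed the test without that library (adjusted p = 0.217). In siBard1 at day 6 replicate 2 was likewise above replicate 1 for 8 of 10 genes, by a median of 0.584.

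**Figure D2:**
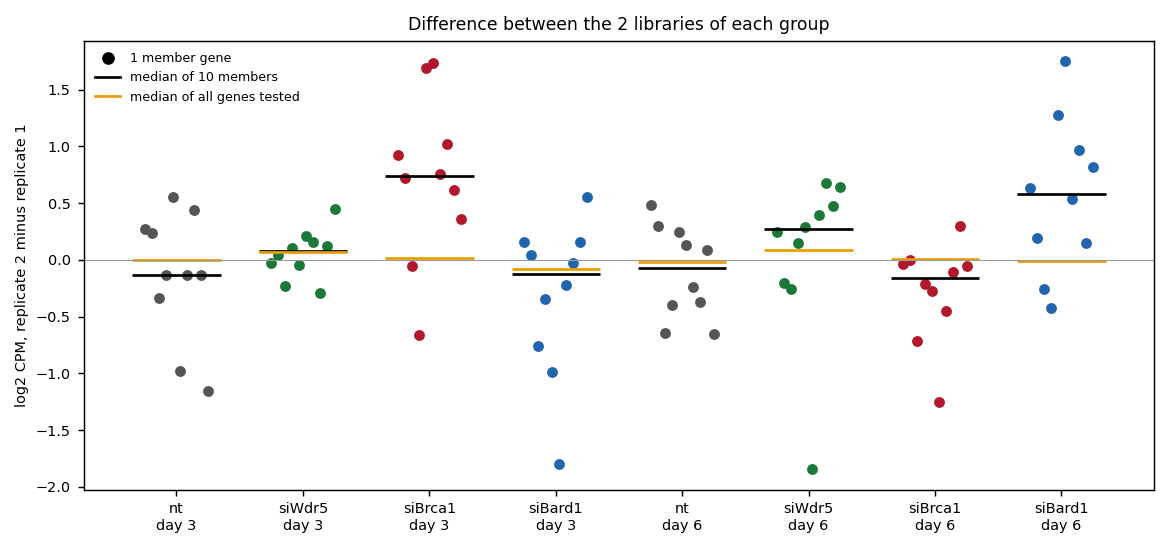
Difference between the 2 libraries of each group (replicate 2 minus replicate 1, log2 CPM), with 1 point per member gene, a black line for the median of the 10 genes and an orange line for the median of all genes tested. The medians of the 10 genes stand out in siBrca1 at day 3 (0.738) and siBard1 at day 6 (0.584), where all genes have medians of 0.0179 and -0.0086.

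The siWdr5 cells at day 3 showed a smaller rise. *Plin1* and *Cd36* were called higher (2 of 10 genes, none lower), and 7.05% of all genes tested were called. *Cd36* was at 1.75 and 2.39 CPM, against 1.19 and 0.536 CPM in nt, and did not overlap it (1.36 ± 0.39, adjusted p = 0.0154). *Plin1* had 8 and 9 reads against 2 and 0, a ratio of 8.92 with a counting interval of 2.12 to 79.6. *Cebpb* passed the test under the fold threshold, at 66.0 and 56.1 CPM (0.66 ± 0.19, adjusted p = 0.0173). All 10 log2-fold changes were above 0, with a median of 0.56 against -0.042 over all genes. *Fabp4*, at 4.18 and 4.05 CPM, and *Plin2*, at 165 and 184 CPM, lay above both nt libraries but missed the test (adjusted p = 0.0945 and 0.0509). The 2 calls rested on single libraries, since no member was called without nt replicate 2, siWdr5 replicate 1 or siWdr5 replicate 2, and 1 without nt replicate 1. None was called either without the filter on low genes or with a pseudocount of 1 CPM.

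In siBard1 at day 3 no member was called by limma, and limma-voom on the recovered reads called 1. An unadjusted p under 0.05 was held by 2 members, and by 4392 of all 14028 genes tested. Of all genes tested 2.24% were called. *Pparg* came nearest, at 13.9 and 15.5 CPM, with both libraries above nt and a log2-fold change of 0.99 ± 0.23 (adjusted p = 0.0139). The 2 libraries were far apart for the genes of few reads: *Fabp4* was at 5.53 and 2.79 CPM and *Plin1* had 10 and 2 reads. *Cd36*, at 0.767 and 1.12 CPM, overlapped the nt control.

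**Figure D3:**
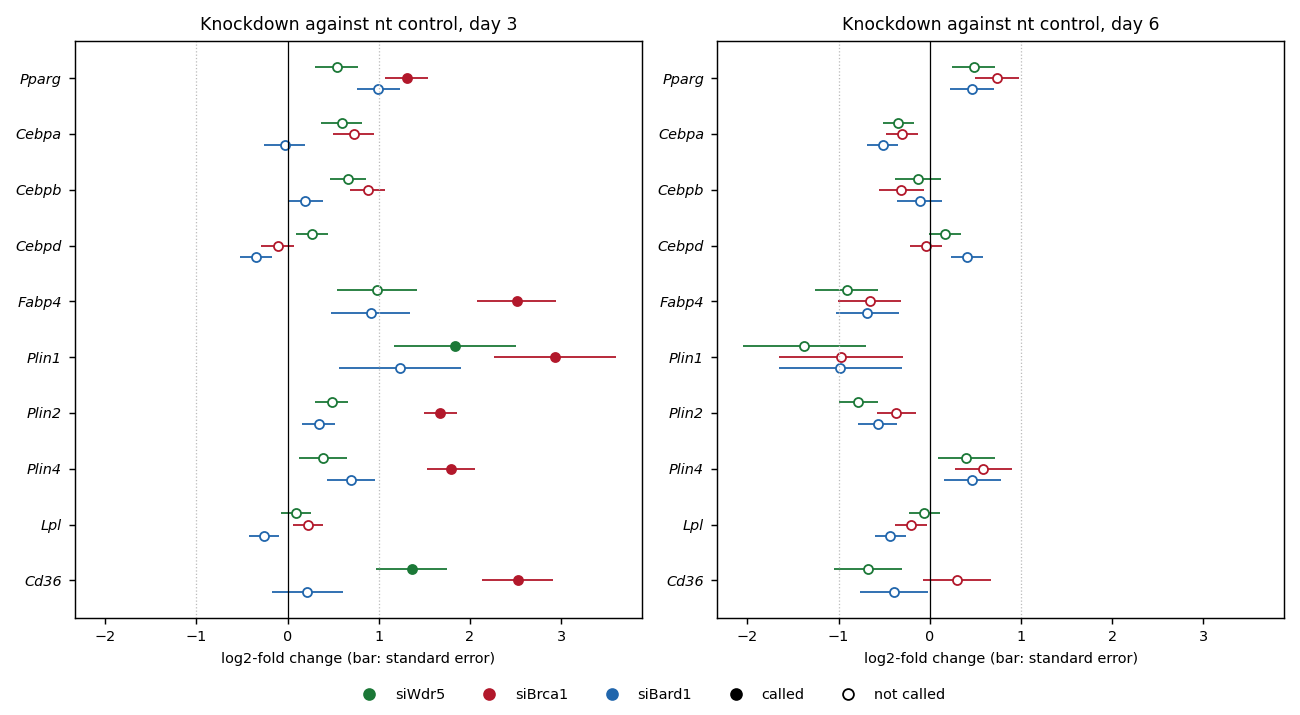
Log2-fold change of each gene in the 3 knockdowns against the nt control at day 3 (left) and day 6 (right), with bars for the standard error, filled points for called genes and dotted lines at -1 and 1. At day 3 the siBrca1 points of *Fabp4* (2.51), *Cd36* (2.52) and *Plin4* (1.79) lie right of the other knockdowns, and at day 6 no point is filled. The points of *Plin1* at day 3 depend on the prior count, since the nt libraries had 2 and 0 reads.

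The knockdowns were also compared with each other at day 3, in 3 pairs, and p values were adjusted over all genes within each pair. Against siWdr5, siBrca1 was called higher for *Fabp4* (1.53 ± 0.43, adjusted p = 0.0298), *Plin2* (1.19 ± 0.18, adjusted p = 0.000898) and *Plin4* (1.40 ± 0.26, adjusted p = 0.00326), 3 of 10 genes where 4.73% of all genes were called. Against siBard1 it was called higher for *Fabp4* (1.60 ± 0.43), *Plin2* (1.33 ± 0.18), *Plin4* (1.10 ± 0.26) and *Cd36* (2.30 ± 0.39), 4 of 10 genes where 3.01% were called (adjusted p = 0.0200, 0.00373, 0.0116 and 0.00420). *Pparg* differed from siWdr5 by 0.77 ± 0.23 (adjusted p = 0.0403), but its difference from siBard1 (0.31 ± 0.23) missed the test (adjusted p = 0.362). Between siWdr5 and siBard1 limma called none of the 10 genes, where 2.05% of all genes were called, and limma-voom called 0. Here 5 members had an unadjusted p under 0.05, as had 3637 of all 14028 genes tested. These pairs rest on single libraries: without replicate 2 of siBrca1, 0 genes were called against siWdr5 and 1 against siBard1. The count against siBard1 was 0 without replicate 2 of siBard1 and also without the mean-variance trend, and the count against siWdr5 was 1 without siWdr5 replicate 2, 2 without siWdr5 replicate 1 and 6 without siBrca1 replicate 1.

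In the nt control itself, part of this group rose between day 3 and day 6. *Cebpa*, *Fabp4*, *Plin1*, *Plin2* and *Cd36* were called higher at day 6 (5 of 10 genes, none lower), and 11.8% of all genes were called. *Cebpa* went from 4.95 and 5.84 CPM to 13.5 and 16.6 CPM, 1.48 ± 0.21 on the log2 scale (adjusted p = 4.61e-05). The nt libraries of day 6 were above all other libraries for this gene. *Plin2* went from 130.3 and 119 CPM to 416 and 352.5 CPM (1.62 ± 0.23, adjusted p = 4.33e-05), and *Fabp4* from 1.72 and 2.53 CPM to 9.97 and 11.9 CPM (2.38 ± 0.46, adjusted p = 0.000664). *Cd36* went from 1.19 and 0.536 CPM to 3.10 and 1.97 CPM (1.63 ± 0.41, adjusted p = 0.00416). In the same libraries the summed macrophage markers lay at 8.38 to 9.89 CPM at day 3 and 14.6 to 19.5 at day 6. Of 5 tested, 2 were called higher, *Lyz2* (2.19) and *Cd14* (1.38). The summed endothelial markers were at 54.4 CPM at day 3 and between 26.2 and 26.6 CPM at day 6. Among them *Tek* (-1.49) and *Flt1* (-1.32) were called lower, and *Egfl7* stood at 0.90 (adjusted p = 0.0363). The part of these cell types in the *Cd36* values was not tested. For *Plin1* the reads went from 2 and 0 to 40 and 44, a ratio of 54.8 with a counting interval of 14.7 to 460.

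*Cebpb* rose too, from 43.3 and 34.2 CPM to 89.5 and 57.1 CPM, but by less than the threshold (0.89 ± 0.26, adjusted p = 0.00948). *Pparg*, at 7.33 and 10.3 CPM at day 6, overlapped its day 3 values (0.23 ± 0.26, adjusted p = 0.494). *Plin4*, *Lpl* and *Cebpd* had log2-fold changes of 0.17, -0.27 and -0.34, and none passed the test.

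The knockdown arms did not show these calls. In siWdr5 no member was called between the days by limma (0 by limma-voom), where 7.34% of all genes were. There 3 members and 5312 of all 14028 genes tested had an unadjusted p under 0.05. In siBard1 none was called by limma (2 by limma-voom), where 9.72% of all genes were. An unadjusted p under 0.05 was held there by 6 members and by 6260 of all 14028 genes tested. *Cebpa* passed the test just under the threshold (0.99 ± 0.21, adjusted p = 0.00178), and *Plin2* followed (0.71 ± 0.23, adjusted p = 0.0229). *Plin1* (1.98) and *Cd36* (1.02) were also higher there but missed the test (adjusted p = 0.0539 and 0.0657). The ratios of *Plin1* reads over time were 2.25 in siWdr5, 1.05 in siBrca1 and 6.23 in siBard1. Their counting intervals were 1.28 to 4.16, 0.68 to 1.63 and 3.37 to 12.6. In siBrca1 *Plin4* was called lower at day 6 (-1.04 ± 0.33, adjusted p = 0.0158), where 16% of all genes were called. It went from 17.4 and 35.4 CPM to 12.5 and 11.7 CPM, and the call was lost without replicate 2 of siBrca1 at day 3 or at day 6, whereas 3 members were called without replicate 1 of day 3. *Lpl* also passed the test there with a change of -0.70 ± 0.18 (adjusted p = 0.00491).

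**Figure D4:**
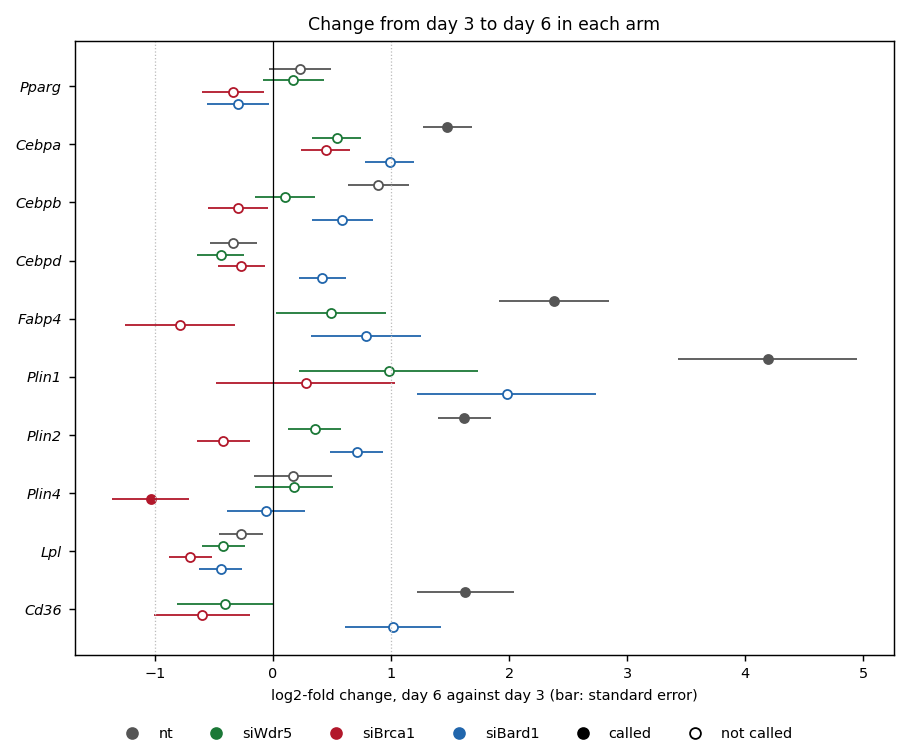
Change from day 3 to day 6 in each arm, as log2-fold change with bars for the standard error, filled points for called genes and dotted lines at -1 and 1. The nt points of *Cebpa* (1.48), *Fabp4* (2.38), *Plin2* (1.62) and *Cd36* (1.63) are filled and lie right of the knockdown points, and *Plin4* in siBrca1 (-1.04) is the 1 filled knockdown point. The nt point of *Plin1* depends on the prior count.

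Whether the course differed between a knockdown and the nt control was tested as an interaction over all 16 libraries. In siBrca1 the change against nt was lower at day 6 than at day 3 for 6 of 10 genes, where 8.6% of all genes were called. These were *Fabp4* (-3.17 ± 0.66, adjusted p = 0.00564), *Cd36* (-2.23 ± 0.58, adjusted p = 0.0147), *Plin2* (-2.04 ± 0.32, adjusted p = 0.00226), *Cebpb* (-1.19 ± 0.36, adjusted p = 0.0298), *Cebpa* (-1.03 ± 0.29, adjusted p = 0.0219) and *Plin1*. The day 3 change of *Plin1* in siBrca1 was known when the gene was chosen, so its call is a description. In siWdr5 *Plin2* alone was called (-1.27 ± 0.32, adjusted p = 0.0412), where 1.39% of all genes were. In siBard1 limma called none (0 by limma-voom), where 0.0428% of all genes were called. There 3 members and 2694 of all 14028 genes tested had an unadjusted p under 0.05. The siBrca1 count ranged from 2 to 8 when single libraries were left out, with 2 calls left without replicate 2 of siBrca1 at day 3 and 3 without either nt replicate 2 of day 3 or nt replicate 1 of day 6. The call in siWdr5 was lost without any single nt or siWdr5 library and without either siBard1 library of day 3.

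At day 6 itself no member was called in a knockdown. Of all genes tested limma called 4.83% in siWdr5, 0% in siBrca1 and 0.0713% in siBard1. An unadjusted p under 0.05 by limma was held by 2, 1 and 4 of the 10 members. Of all 14028 genes tested, 5233, 1123 and 1908 had such a p. Limma-voom called 0 members in each, and in siBrca1 it called 0 of all genes too. *Plin2* passed the test in siWdr5 with a log2-fold change of -0.78 ± 0.21 (adjusted p = 0.0280), at 194 and 255 CPM against 416 and 352.5 CPM in nt. The values of *Plin1* were 35 and 15 reads in siWdr5, 30 and 15 in siBrca1 and 11 and 66 in siBard1, against 40 and 44 in nt. In CPM all 6 knockdown libraries lay below both nt libraries, but siBard1 replicate 2 only narrowly (3.25 against 3.34 CPM in nt replicate 1). *Plin1* missed the test in siWdr5, siBrca1 and siBard1 (adjusted p = 0.166, 0.734 and 0.552). *Fabp4* had log2-fold changes of -0.91, -0.66 and -0.68 in siWdr5, siBrca1 and siBard1, and *Pparg* of 0.48, 0.74 and 0.46, and none passed the test. The targeted transcripts were near the nt level at this day, and the nt level itself was lower than at day 3, as given above. The part of these levels in the day 6 values was not tested.

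The order of the 8 groups by mean level differed between genes. *Pparg* was highest in siBrca1 at day 3 (19.2 ± 8.42 CPM, SD, n = 2) and lowest in nt at day 3 (7.43 ± 0.982 CPM). The 4 highest groups each overlapped the next one, and the nt groups of both days overlapped at the bottom. The siWdr5 group of day 3 (10.7 ± 0.151 CPM) stood apart from its neighbours in this order. It lay within the range of siBard1 at day 6 (9.61 to 14.9 CPM). *Cebpa* had another order, with nt at day 6 on top (15.0 ± 2.17 CPM) and siBard1 at day 3 at the bottom (5.26 ± 0.105 CPM), where it overlapped nt at day 3. For *Cebpb* and *Cebpd* every group overlapped the next. *Plin2* ran from siBrca1 at day 3 (411 ± 149 CPM) and nt at day 6 (384 ± 44.9 CPM), which overlapped, down to nt at day 3 (125 ± 7.94 CPM), which stood apart. *Plin4* and *Cd36* were highest in siBrca1 at day 3 (26.4 ± 12.7 and 4.62 ± 0.817 CPM), apart from the next group, siBrca1 at day 6 (12.1 ± 0.616 and 3.03 ± 0.0824 CPM). *Fabp4* was highest in siBrca1 at day 3 (14.0 ± 10.4 CPM), which overlapped nt at day 6 (10.9 ± 1.33 CPM), and lowest in nt at day 3 (2.13 ± 0.574 CPM), which stood apart. *Lpl*, which had the smallest fold between its highest and lowest group among the 3 fatty acid handling genes, ran from 55.8 ± 16.5 CPM in siBrca1 at day 3 to 28.8 ± 2.12 CPM in siBard1 at day 6.

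Across the 16 libraries the members fell into patterns that are given here as Pearson r of the log2 CPM values, without a test, since the libraries share groups and days. *Fabp4* and *Plin2* ran most alike (r = 0.939), followed by *Pparg* and *Plin4* (0.871), *Fabp4* and *Plin1* (0.854) and *Cebpa* and *Plin1* (0.852). *Pparg* and *Cebpa* had an r of 0.163, and *Pparg* and *Cebpd* one of -0.450. Of all other genes tested, the most similar to *Pparg* were *Parp4* (0.897), *Cpeb1* (0.873) and *Slc17a5* (0.869), and to *Cebpa* *Ptgs1* (0.953), *Kifc2* (0.949) and *Mmp2* (0.945). For *Fabp4* these were *Oplah* (0.950), *Slc27a1* (0.941) and *Lama5* (0.941), and for *Plin2* *Abcc4* (0.968), *Slc27a1* (0.958) and *Srxn1* (0.955). *Slc27a1*, a fatty acid transport protein, was thus among the 3 nearest genes of both. Since *Fabp4* and *Plin2* themselves ran alike (r = 0.939), this is not a separate observation. *Plin1* was nearest to *Celsr3* (0.904), *Sgip1* (0.899) and *Slc31a2* (0.895), and *Cd36* to *Gnpda1* (0.887), *Cat* (0.887) and *Cgrrf1* (0.883). *Lpl* was nearest to *Stxbp5* (0.910) and to the fatty acid desaturase genes *Scd1* (0.897) and *Scd2* (0.888).

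Other genes of lipid handling were counted in lists set up for comparison, beside the background share of called genes given above. Of 14 genes of fatty acid release, uptake and binding, 6 were called higher and 1 lower in siBrca1 at day 3. There 13.4% of all genes were called, and the median log2-fold change of the 14 was 0.39 against 0.002 over all genes. *Fabp3*, a fatty acid carrier known from muscle, had the largest change (2.17 ± 0.31, adjusted p = 9.92e-05), followed by *Vldlr*, a lipoprotein receptor (1.75 ± 0.28, adjusted p = 0.000234), and *Lipg*, endothelial lipase (1.61 ± 0.15, adjusted p = 5.40e-06). The gene called lower was the transport protein gene *Slc27a3* (-1.12 ± 0.19, adjusted p = 0.000291), named after its value was seen. In the same list *Fabp3* was called in siWdr5 at day 3 (1.08 ± 0.31, adjusted p = 0.0152), and *Lipg* (1.77 ± 0.15, adjusted p = 2.62e-05) and *Fabp3* (1.05 ± 0.31, adjusted p = 0.0381) in siBard1. These were 1 gene of 14 in siWdr5 and 2 in siBard1, where 7.05% and 2.24% of all genes were called. At day 6 limma called none of the 14 in siWdr5, siBrca1 or siBard1, where 5, 1 and 2 had an unadjusted p under 0.05. Limma-voom called 0 in each. Of all 14028 genes tested, 5233, 1123 and 1908 had such an unadjusted p.

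Of 9 further genes of the droplet coat and of lipolysis, 1 was called in siBrca1 at day 3, where 13.4% of all genes were. It was *Mgll*, the monoglyceride lipase (1.83 ± 0.19, adjusted p = 1.19e-05). *Mgll* was also the 1 gene of the 9 called in siWdr5 at day 3 (1.10 ± 0.19, adjusted p = 0.000810) and at day 6 (1.09 ± 0.24, adjusted p = 0.0126). There 7.05% and 4.83% of all genes were called. In siBard1 at day 3 it had 0.71 ± 0.19. None of 14 genes of fatty acid and triglyceride synthesis, among them *Fasn*, *Acaca* and *Scd1*, was called by limma in the 6 comparisons with nt. At day 3, 6 of them had an unadjusted p under 0.05 in siWdr5, 7 in siBrca1 and 8 in siBard1, and limma-voom called 0, 0 and 1. Of all 14028 genes tested, 6361, 7562 and 4392 had such an unadjusted p. At day 6 the unadjusted counts were 4, 1 and 1, against 5233, 1123 and 1908 over all genes, and limma-voom called 0 of the 14 in each. The median log2-fold change of the 14 genes at day 3 stood at -0.13 for siWdr5 cells, -0.022 for siBrca1 cells and -0.22 for siBard1 cells.

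The 14 further transcription factors and coactivators of fat cell formation moved by a median of 0.62 (log2) in siBrca1 at day 3, against 0.002 over all genes. Of the 14, 11 had an unadjusted p under 0.05, as had 7562 of all 14028 genes tested, but limma called none of the 14 higher. In siWdr5 and siBard1 at day 3 the median was 0.28 and 0.19. Among these genes *Zfp423*, a factor of fat cell commitment, was called higher in siWdr5 at day 3 (1.08 ± 0.16, adjusted p = 0.000248) and day 6 (1.35 ± 0.25, adjusted p = 0.00816). *Stat5a* was called higher at day 6, by 1.04 ± 0.13 in siWdr5 and by 1.36 ± 0.13 in siBard1 (adjusted p = 0.00281 and 0.00954). *Zbtb16* was called lower at day 3 in siBrca1 (-1.72 ± 0.36, adjusted p = 0.00154) and siBard1 (-1.99 ± 0.36, adjusted p = 0.00340). At day 3 these calls were 1 of 14 genes in each of siWdr5, siBrca1 and siBard1, where 7.05%, 13.4% and 2.24% of all genes were called. At day 6 they were 2 in siWdr5 and 1 in siBard1, where 4.83% and 0.0713% of all genes were. The 7 tested genes known to restrain fat cell formation had medians of 0.69, 0.85 and 0.42 in siWdr5, siBrca1 and siBard1 at day 3. Of these genes 1, 2 and 1 were called, beside the same shares over all genes. Called higher were *Gata3* in siWdr5, siBrca1 and siBard1 at day 3 (1.32, 1.57 and 1.19; adjusted p = 0.00185, 0.000300 and 0.00995), *Klf2* in siBrca1 at day 3 (1.57 ± 0.22, adjusted p = 7.99e-05) and *Dlk1* in siWdr5 at day 6 (1.61 ± 0.24, adjusted p = 0.00375).

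Markers of other cell types were read beside these values. *Cd36* is also expressed by macrophages and endothelial cells. Of 14 macrophage markers 8 were measured, and their summed level at day 3 was 8.38 to 9.89 CPM in nt, 14.0 to 15.9 in siWdr5, 17.7 to 22.2 in siBrca1 and 10.2 to 10.8 in siBard1. At day 6 it was 14.6 to 19.5 CPM in nt, 12.8 to 21.8 in siWdr5, 20.6 to 26.9 in siBrca1 and 14.7 to 17.3 in siBard1. Mean *Cd36* in siBrca1 went from 4.62 CPM at day 3 to 3.03 CPM at day 6. Among the markers *Cd68* (1.07 ± 0.23, adjusted p = 0.00182) and *Csf1r* (1.06 ± 0.25, adjusted p = 0.00347) were called higher in siBrca1 at day 3. In siWdr5 at day 3 *Csf1r* was called higher (1.81 ± 0.25, adjusted p = 0.000161) and *Cd14* stood at -0.31. In siWdr5 at day 6 *Csf1r* (1.33) and *Mrc1* (1.66) were called higher and *Cd14* lower (-1.58), with *Cd36* at -0.68. *Lyz2* stood at -1.85 there (adjusted p = 0.0523) and *Cd68* at 0.38 (adjusted p = 0.186). *Adgre1*, *C1qb* and *Tyrobp* stayed at or under 1.00, 0.579 and 0.776 CPM in the 16 libraries, and 0 to 2 of the 8 had no read in a library. The summed level of 10 measured endothelial markers at day 3 was 54.4 CPM in both nt libraries, 78.25 to 83.8 in siWdr5, 55.7 to 67.9 in siBrca1 and 62.6 to 71.7 in siBard1. *Tek* held most reads of this list, and *Flt1* was called higher at day 3 in siWdr5, siBrca1 and siBard1 (1.18, 1.35 and 1.08, adjusted p = 0.000144, 2.93e-05 and 0.00105). *Egfl7* stood at -0.74 in siWdr5 at day 3 (adjusted p = 0.0837), and *Cdh5* and *Emcn* stayed at or under 0.749 and 0.335 CPM. The fat cell markers summed to 4.75 to 5.42 CPM in nt, 6.44 to 7.09 in siWdr5, 8.48 to 8.79 in siBrca1 and 6.03 to 7.99 in siBard1 at day 3, and to 11.0 to 14.4 CPM in nt at day 6. *Lipe*, which is also in the droplet and lipolysis list, held most of these reads (1585 over the 16 libraries, against 392 for *Adrb3*). In siWdr5 at day 3 *Lipe* stood at 0.60 and *Adrb3* at -0.41. The fibroblast markers summed to 7819 to 8818 CPM in nt, 13796 to 14341 in siWdr5, 11651 to 12798 in siBrca1 and 9717 to 11316 in siBard1 at day 3, and 4 of 12 were called higher in siWdr5, with *Lum* (1.45), *Thy1* (1.05) and *Postn* (1.04) as the largest. The part of these cell types in the values of *Cd36*, *Plin1* and *Fabp4* was not tested.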

How the data were processed

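Gene expression was measured in 16 libraries of ribosomal RNA-depleted total RNA, 2 per group, at depths of 11169738 to 26832534 reads. The authors aligned reads to mm10 with STAR 2.5.2b and deposited log2 CPM made with edgeR 3.20.9, with scaled library sizes and a small prior count, after low-count genes had been removed. The read counter, its annotation and its use of strand are not given in the sources used here. In each library 100% of the values were whole reads once the scaling and prior were undone (tolerance 0.01), and these reads served for the counts and the floor of 3 reads.

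The authors tested counts with DESeq2, whereas here limma 3.58.1 (R 4.3.3) with a mean-variance trend was fitted to the deposited log2 CPM, since the table is on a log scale. Genes whose log2 CPM averaged 0 or more over the libraries were kept. The 8 libraries of a day entered each comparison between siRNAs, and all 16 entered the changes over time and the interactions. P values were two-sided and adjusted after Benjamini-Hochberg over all genes tested, and a gene was called at an adjusted p under 0.05 with a log2-fold change beyond 1 in either direction. The calculation was tested on simulated data. Ratios of *Plin1* reads carry exact 95% intervals for counting error only, and reads without molecular identifiers are not independent molecules. Fold changes of low genes depend on the prior count.

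The 10 genes and the 9 gene lists used for comparison were chosen with earlier results of these data known. Besides the 10 genes, the text names up to 3 genes per list with the largest absolute change among those called in a knockdown. It also names the 3 genes most like a member by Pearson r, and the 3 targeted genes. Other list genes are named outside this rule. They are examples of a list, cell type markers that were low or went another way, and genes called over time in nt. Alternatives covered the filter, the pseudocount, the libraries entering a fit, the trend, the fold threshold, centring, quantile normalization, a replicate block, limma-voom and leaving out each library.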

Additional observations from a re-analysis of the deposited data

Results flagged for a closer look

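The difference from the nt control changed between day 3 and day 6 for 7 combinations of gene and knockdown, by the interaction term of the 16-library limma fit, adjusted over all genes tested. In siBrca1 the interaction was -1.03 for *Cebpa*, -1.19 for *Cebpb*, -3.17 for *Fabp4*, -2.04 for *Plin2* and -2.23 for *Cd36* on the log2 scale, and in siWdr5 it was -1.27 for *Plin2* (adjusted p = 0.0219, 0.0298, 0.00564, 0.00226, 0.0147 and 0.0412). For *Plin1* in siBrca1 the fitted value was -3.91 (adjusted p = 0.0187), which depends on the prior count because the nt libraries of day 3 had 2 and 0 reads. *Plin1* was chosen with its siBrca1 rise at day 3 known and passed the filter through the groups where it was high. Its p value is thus no independent evidence. All of these terms share the nt libraries, in which *Cebpa*, *Fabp4*, *Plin1*, *Plin2* and *Cd36* were called higher at day 6.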

How the results depend on the processing

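Depth limited *Plin1* (2 reads in the nt libraries of day 3) and *Cd36* (23 reads) most, and each group had 2 libraries. Of the values for single genes under the alternatives, 1275 kept their direction and side of the threshold, 40 passed it only under the alternative, 38 no longer passed it and 23 changed direction. For siWdr5 at day 3 (2 called) the count was 0 without the filter, with a minimum mean of 2, which removes *Plin1* and *Cd36* from testing, and with a pseudocount of 1 CPM, and it was 1 with all 16 libraries, no trend, a pseudocount of 0.1 CPM, centring or quantile normalization. For siBard1 at day 3 (0 called) it was 1 with centring, no fold threshold or limma-voom. For siWdr5 at day 6 (0) it was 1 with quantile normalization or no fold threshold. Between siBrca1 and siBard1 (4) it was 2 without the filter, 0 without the trend and 7 without the fold threshold, and between siWdr5 and siBard1 (0) it was 1 with only their 4 libraries or no fold threshold. The nt change over time (5) had 3 calls at a minimum mean of 2. The siBrca1 change (1) had 0 with a pseudocount of 1 CPM and 2 without the fold threshold, and the siBard1 change (0) had 2 without the fold threshold and 2 with limma-voom. The siWdr5 interaction (1) had 0 without the trend. The cause of these shifts was not tested beyond the genes that a filter removes. In a fit with a replicate block the siBard1 change over time had 1 call in place of 0 and the siWdr5 interaction 2 in place of 1, and the other counts stayed within 1.5 times of those reported. The numbers were not taken as pairs, since not every correlation of the replicate differences of 2 groups was over 0.1: they ran from -0.0931 to 0.0721 at day 3, -0.0696 to 0.26 at day 6 (3 of 6 over 0.1) and -0.085 to 0.372 across the days. Single genes did share a direction, with *Cebpb* lower in replicate 2 in 8 of 8 groups and *Lpl* higher in 7 of 8.

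With single libraries left out, the count of called genes ran from 0 to 2 for siWdr5, 5 to 7 for siBrca1 and 0 to 1 for siBard1 at day 3 (1 without nt replicate 2), and stayed at 0 at day 6. It ran from 0 to 6 for siBrca1 against siWdr5, 0 to 6 for siBrca1 against siBard1 (6 without siBrca1 replicate 1) and 0 to 1 for siWdr5 against siBard1 (1 without either siBrca1 library). Over time it ran from 4 to 6 in nt, 0 to 3 in siBrca1 and 0 to 4 in siBard1 (4 without siBard1 day 6 replicate 1), and stayed at 0 in siWdr5. The interactions had 0 to 3 calls for siWdr5 (3 without either siBrca1 library of day 3, 2 without either of day 6), 2 to 8 for siBrca1 (8 without siBrca1 day 3 replicate 1) and 0 for siBard1. Values near 0 changed sign. At day 3 they ran from -0.44 to 0.22 for *Cebpd* and -0.0834 to 0.53 for *Lpl* in siBrca1, and from -0.15 to 0.0866 for *Cebpa*, -0.19 to 0.58 for *Cebpb* and -0.36 to 0.79 for *Cd36* in siBard1. At day 6 they ran from -0.45 to 0.19 for *Cebpb*, -0.0333 to 0.36 for *Cebpd* and -0.30 to 0.18 for *Lpl* in siWdr5, from -0.67 to 0.0482 for *Cebpb*, -0.24 to 0.16 for *Cebpd* and -0.0327 to 0.62 for *Cd36* in siBrca1, and from -0.43 to 0.21 for *Cebpb*, -0.0180 to 0.95 for *Plin4* and -0.80 to 0.0127 for *Cd36* in siBard1. In the nt change over time they ran from -0.0117 to 0.47 for *Pparg* and -0.0516 to 0.39 for *Plin4*. Quantile normalization turned *Cebpd* in siWdr5 at day 6 to -0.0161 and *Plin4* in the nt change to -0.0656.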

Other observations

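Other genes of lipid handling changed between day 3 and day 6 in the nt control, named here after their values were seen, where 11.8% of all genes tested were called. Of 14 genes of fatty acid release, uptake and binding, limma called 3 higher and none lower: *Fabp3* by 5.29 ± 0.47 on the log2 scale, *Angptl4*, an inhibitor of lipoprotein lipase, by 2.08 ± 0.18, and *Slc27a1* by 1.07 ± 0.20 (SE, adjusted p = 1.23e-06, 9.46e-07 and 0.000511). Of 9 further genes of the droplet coat and of lipolysis, 3 were called higher, the perilipin gene *Plin3* (1.06 ± 0.13, adjusted p = 1.25e-05), *Hilpda*, a droplet-associated inhibitor of triglyceride lipolysis (1.03 ± 0.18, adjusted p = 0.000260), and the hormone-sensitive lipase *Lipe* (1.30 ± 0.22, adjusted p = 0.000199). Among 14 genes of synthesis *Lpin3* was called higher (1.39 ± 0.26, adjusted p = 0.000455) and *Gpam*, which starts glycerolipid synthesis, lower (-1.28 ± 0.12, adjusted p = 2.45e-06). Of 7 inhibitors of fat cell formation, *Gata2* (1.48 ± 0.21) and *Gata3* (1.37 ± 0.25) were called higher and *Dlk1* lower (-1.04 ± 0.26), with adjusted p = 4.48e-05, 0.000431 and 0.00411.

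Of 12 fibroblast markers 6 were called higher and 2 lower over the same time, with a median log2-fold change of 0.88, while their summed level lay between 7819 and 8818 CPM at day 3 and between 5248 and 5508 CPM at day 6. Among them *Lum* (4.19 ± 0.38) and *Dcn* (3.25 ± 0.17) were called higher and *Col1a1* lower (-1.83 ± 0.21), with adjusted p = 1.55e-06, 1.86e-08 and 1.13e-05. Their part in the changes of the lipid genes was not tested.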
